A study of Mus musculus with 173 samples.

Results

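The comparison set 5 brain regions against 6 tissues outside the brain in wild-type mice, by messenger RNA sequencing. The libraries were chosen by label alone: of 173 libraries in the series, the 85 labelled wild type were used, 40 from brain and 45 from peripheral tissues. The series surveys tissues of mice that carry an expanded CAG repeat in the huntingtin gene (Q175) and of wild-type mice. Only the wild-type mice enter the main comparison. They were C57BL/6 mice of 6 months, 4 females and 4 males, all caged with heterozygous Q20 mice, a line with a shorter repeat. Brainstem, cerebellum, hippocampus, hypothalamus/thalamus, corpus callosum, brown adipose tissue, white adipose tissue around the intestine, gastrocnemius muscle and heart each gave 8 libraries, 1 per mouse. White adipose tissue around the gonad gave 7 and skin 6, and 5 of the 8 mice were represented in all 11 tissues. RNA was polyA-selected from flash-frozen tissue. No marker or dissection boundary is given for any region in the labels, and gonadal fat lies beside different organs in the sexes.

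Brain tissue is built from neurons, which signal through synaptic vesicles, receptors and ion channels, and from glia: oligodendrocytes that wrap axons in myelin, astrocytes that clear transmitter and buffer ions, and microglia, the resident macrophages. Its extracellular matrix is rich in proteoglycans and poor in the fibrillar collagens that fibroblasts lay down in skin, muscle and fat. Vessels of the brain form a barrier with its own transporters, and fat storage and contraction are tasks of the peripheral tissues studied here.

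Brain libraries held 28000000 to 39700000 estimated counts (median 33200000) and peripheral ones 32500000 to 47600000 (median 39000000). Levels are given as CPM, counts relative to library size, scaled by the trimmed mean of M-values (TMM), and 19928 genes had enough counts to be tested. The tissues carried their defining transcripts: Gabra6 of cerebellar granule cells averaged 485 CPM in cerebellum against 0.226 CPM in the next tissue, Pmch averaged 321 CPM in hypothalamus/thalamus, Myh6 averaged 32800 CPM in heart, Ucp1 averaged 3930 CPM in brown adipose and Krt14 averaged 2070 CPM in skin. Corpus callosum, a white matter tract, also carried neuronal transcripts: the 20 synaptic vesicle genes summed to 4220 to 8660 CPM there, on plain library totals, against 14100 to 14900 CPM in hippocampus. Of the genes listed as hippocampal, Prox1 averaged 112 CPM in hippocampus and 120 CPM in heart, and Wfs1 87.4 CPM in hippocampus and 114 CPM in gastrocnemius.

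The first principal component of log2 CPM held 53.8% of the variance and parted the classes without overlap, with scores of 172 to 228.9 in brain libraries and -227.8 to -133.9 in peripheral ones. The second, with 12.3%, spread the peripheral tissues, from gastrocnemius at up to 196.2 to intestinal adipose at down to -183.9, while brain libraries lay between -18.07 and 26.66. Pearson's r between tissue means, across genes and as a description only, was 0.936 to 0.972 among the brain regions, 0.798 to 0.945 among the peripheral tissues and 0.597 to 0.738 across the classes.

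**Figure D1:**
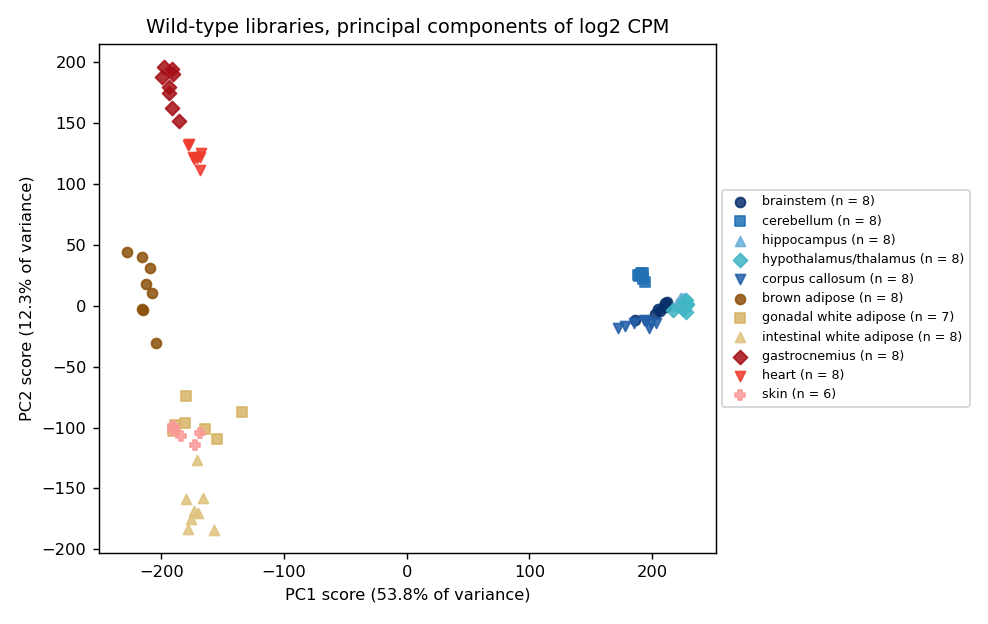
Scores of the 85 wild-type libraries on the first and second principal components of log2 CPM (1 point per library, axes in score units with the percent of variance held). Brain libraries form 1 group between 172 and 228.9 on the first axis and peripheral libraries lie between -227.8 and -133.9.

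The genes that mark the classes were examined first. Snap25 (ENSMUSG00000027273), a membrane protein of the complex that fuses synaptic vesicles, averaged 894 CPM in corpus callosum, 1720 in hippocampus, 1750 in cerebellum, 1300 in hypothalamus/thalamus and 2490 in brainstem. In the periphery it averaged 0.00988 CPM in skin, 0.0293 in gastrocnemius, 0.0145 in heart, 0.932 in intestinal white adipose, 1.53 in gonadal white adipose and 0.0617 in brown adipose. The lowest, median and highest library were 484, 1670 and 2860 CPM in brain and 0, 0.0541 and 8.02 CPM in periphery, so no peripheral library reached any brain library. The fitted log2 fold change, brain minus periphery, was 13.98 ± 0.295 (SE, adjusted p = 5.34e-57), positive in 8 of 8 mice. Here and below, the SE was worked back from the fold change and the test's F value, and covers spread between mice within tissues. Among peripheral tissues the white adipose depots were highest, and in each of them 1 female's library led, at 8.02 CPM in gonadal and 3.78 CPM in intestinal fat, from different mice.

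Syt1 (ENSMUSG00000035864), the calcium sensor of vesicle release, had another order in brain: 572 CPM in corpus callosum, 1220 in hippocampus, 400 in cerebellum, 761 in hypothalamus/thalamus and 268 in brainstem. Peripheral means ran from 0.0101 to 2.23 CPM, highest in intestinal adipose. Brain libraries (lowest, median, highest) were 206, 577 and 1270 CPM and peripheral ones 0, 0.091 and 4.6 CPM, again without overlap, and the log2 fold change was 11.59 ± 0.243 (SE, adjusted p = 3.42e-57). Col1a1 (ENSMUSG00000001506), a chain of type I collagen, went the other way, with 5.86 CPM in corpus callosum, 3.69 in hippocampus, 6.96 in cerebellum, 3.7 in hypothalamus/thalamus and 6.62 in brainstem. Its peripheral means ran from 52.6 CPM in heart and 84.5 CPM in gastrocnemius to 117 CPM in intestinal adipose, 151 CPM in gonadal adipose and 159 CPM in brown adipose, and were highest in skin. Brain libraries ranged over 3.11, 4.56 and 13.8 CPM and peripheral ones over 33.7, 101 and 1060 CPM. The log2 fold change was -4.72 ± 0.143 (SE, adjusted p = 4.73e-46), negative in 8 of 8 mice. In all 3 genes the classes did not overlap in any library, as the plot of the marker genes by tissue shows. In whole tissue, fewer cells of a type and less RNA per cell cannot be told apart, here and in every result that follows.

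**Figure D2:**
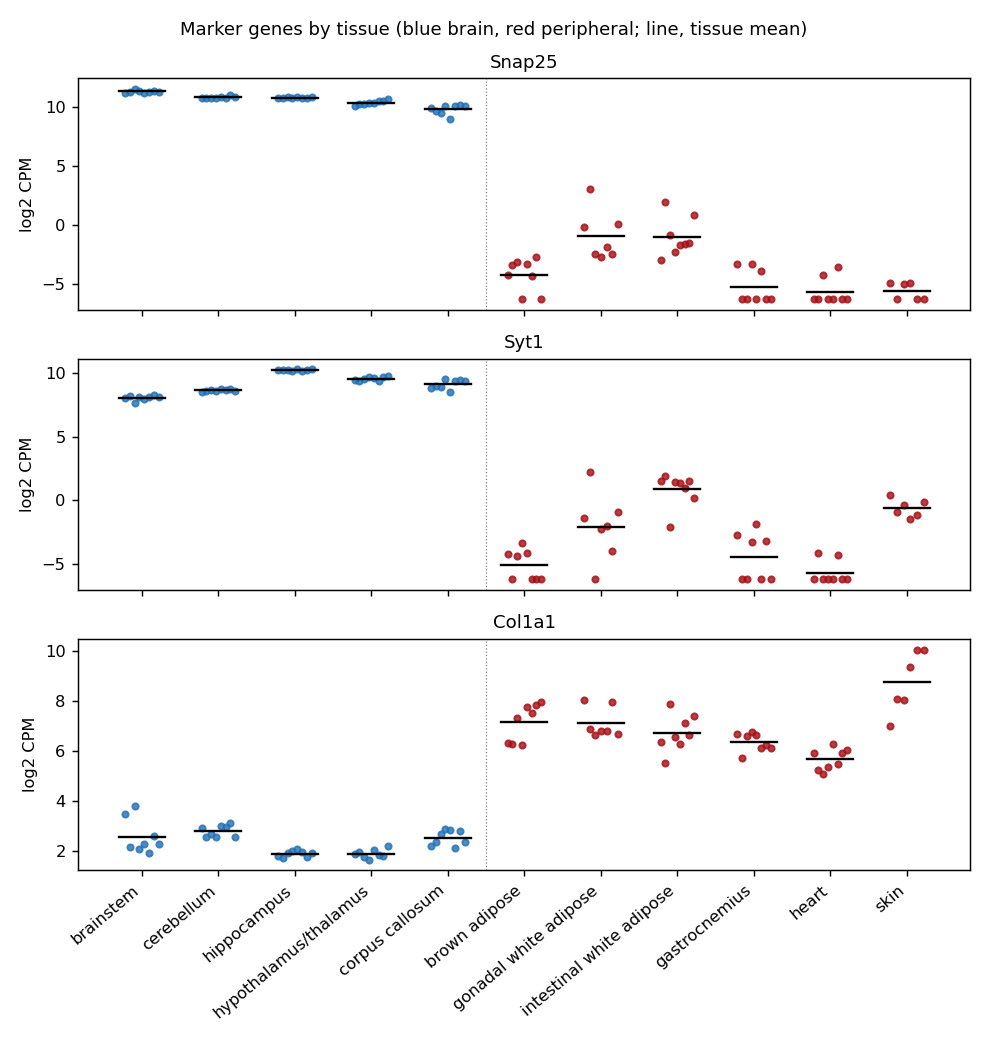
Levels of Snap25, Syt1 and Col1a1 in log2 CPM (prior count 0.5) in each library by tissue, with brain regions in blue, peripheral tissues in red and a line at the tissue mean. Snap25 and Syt1 are higher in each brain library than in any peripheral one, and Col1a1 is lower.

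Across all genes, 5387 were higher in brain (27% of the 19928 tested) and 5224 lower (26.2%), at an adjusted p under 0.05 and a fold of at least 2, in edgeR's quasi-likelihood fit with tissue and sex as terms. Of these 10611 genes, 10342 kept 1 direction in 8 of 8 mice, which their choice on the same mice largely fixes. With calls on about this many genes, the test by itself sets few genes apart, so a stricter rule was read beside it. It asked that the lowest of the 5 brain region means lie at least 2-fold above the highest of the 6 peripheral means, or the reverse. By that rule 1916 genes were above in every brain region (9.61%) and 867 below (4.35%). In 1403 of the 1916 (73.2%) and 593 of the 867 (68.4%), no brain library overlapped any peripheral library, against 1639 (8.22%) and 929 (4.66%) of all 19928 genes. The sets were chosen for separated means of the same libraries, so these shares are a description. When the 11 tissue means were taken as the replicates, so that the error was the spread between tissues, limma called 4470 genes higher (22.4%) and 3696 lower (18.5%), and every gene of the 1916 and the 867 was among them, which their choice on the same tissue means largely fixes. The edge of the rule divides close values: Apbb1 and Pip5k1c had gaps of 2-fold and Zfp286 of 1.996-fold on the brain side, while Ppfibp1 had 2.004-fold and Npr1 1.997-fold on the other.

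The balance of higher and lower genes depended on how libraries were scaled. Heart libraries took 40.1% to 44.1% of their counts from mitochondrially encoded transcripts, and brain libraries 6.47% to 10.4%. In heart 22 to 32 genes made up 50% of all counts, in gastrocnemius 32 to 61, and in brain regions 699 to 1133. TMM factors were 1.21 to 1.38 in brain and 0.449 to 1.4 in periphery. Without them the median log2 fold change over all genes moved from -0.11 to 0.51, and 7479 genes were called higher and 3459 lower. In log2(FPKM + 1), where FPKM is a fragment count divided by depth and gene length, 4440 were called higher and 2132 lower. The sequencing library names came in 2 formats whose meaning is not given, and 29 of the 40 brain libraries but 0 of the 45 peripheral ones had the shorter one. Among libraries with the longer format, 1991 genes were above and 902 below in every brain region, and they included 1854 of the 1916 and 790 of the 867. In the Q175 mice of the same series, fitted alone, 1714 and 627 genes passed the same rule, holding 1633 (85.2%) of the wild-type brain set and 586 (67.6%) of the peripheral set.

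The genes with the widest gap on the brain side were Rph3a, Mobp, Mir124a-1hg, Snap25, Gad2, Sncb, St8sia3, Ermn, Gria2, Svop, Cdk5r2 and Ralyl. Several of them had no count at all in 1 or more peripheral tissues, so levels are given in place of fitted folds, which then depend on the prior count. Rph3a, a Rab3 effector on synaptic vesicles, averaged 259 to 605 CPM in the brain regions and 0 to 0.307 CPM in the peripheral tissues. Gad2, which makes the inhibitory transmitter GABA, averaged 97.9 to 315 CPM in brain, highest in hypothalamus/thalamus, and at most 0.374 CPM in periphery. Gria2, the AMPA receptor subunit that limits calcium entry, averaged 169 to 783 CPM, highest in hippocampus, and at most 0.242 CPM outside brain. These 3 are genes of neurons.

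Mobp and Ermn, of the same group, mark oligodendrocytes. Mobp, a protein of the myelin sheath, averaged 6760 CPM in corpus callosum, 559 in hippocampus, 494 in cerebellum, 1010 in hypothalamus/thalamus and 2120 in brainstem. Its peripheral libraries were 0, 0 and 7.09 CPM (lowest, median, highest). Ermn, an actin-binding protein of oligodendrocytes, averaged 548 CPM in corpus callosum and 44.5 CPM in hippocampus, with peripheral means of 0 to 0.106 CPM. Both were highest in corpus callosum and next highest in brainstem. Sncb, St8sia3, Svop, Cdk5r2 and Ralyl followed, with brain region means of at least 18.4 CPM and peripheral means of at most 0.241 CPM. In each of these 5 genes gonadal adipose had the highest peripheral mean, at 0.0456 to 0.241 CPM. The median peripheral library held 0 CPM in each gene, while the highest peripheral library reached 0.319 to 1.21 CPM. The gonadal means may therefore rest on few libraries. That of Snap25, of the same group, did: beside a mean of 1.53 CPM, 1 female's gonadal library held 8.02 CPM and the next 1.08 CPM.

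The 1916 genes were not uniform within brain. The highest region of a gene was most often hippocampus (28.2%) or hypothalamus/thalamus (22.8%), and the lowest most often cerebellum (35.6%) or corpus callosum (35.2%). The median spread between a gene's highest and lowest region was 3.56-fold. Summed, these genes took 20.3% to 24% of the counts of a brain library and 0.312% to 1.19% of a peripheral one. The nearest peripheral tissue was an adipose depot around intestine (24.4% of genes) or gonad (24.1%) more often than brown adipose (7.62%). In each of these 2 white depots 1 female's library stood apart for Snap25, and what such libraries add to the shares was not tested.

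Of the brain set, 3 genes carry, within the promoter window of 250 bases before to 50 after a start in RefSeq's GRCm38.p6 table, both parts of the element bound by REST, a repressor of neuronal genes outside the nervous system. The search was for TCAGCACC, 2 bases of any kind and GGACAG, on both strands. It matched the first listed promoter of 7 of the 27025 genes in the table (0.0259%), 5 of them among tested genes and 0 in the peripheral set. Only 69.7% of the brain set and 73.6% of the peripheral set had a promoter in the table, so no share was compared. The sequences are shown because they are what the 3 genes share beside their level, with the matched stretch in capitals, read 5′ to 3′ on the gene's strand (GRCm38.p6). Fam163b lies at chr2:27142553-27142592 on the minus strand, Fbll1 at chr11:35799045-35799084 on the minus strand and Ttc9b at chr7:27653935-27653964 on the plus strand. In Fbll1 and Ttc9b the match is on the opposite strand, so the capitals show its reverse complement.
Fam163b: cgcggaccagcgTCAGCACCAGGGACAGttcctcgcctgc
Fbll1: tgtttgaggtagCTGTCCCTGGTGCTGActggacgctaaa
Ttc9b: cggcgcgCTGTCCCCGGTGCTGAtgctcag

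Fam163b averaged 62.1 CPM in corpus callosum, 163 in hippocampus, 7.87 in cerebellum, 20.9 in hypothalamus/thalamus and 45.2 in brainstem, and its highest peripheral mean was 0.982 CPM, in brown adipose. Fbll1, a fibrillarin-like gene, averaged 5.81 to 16.4 CPM in brain and at most 0.08 CPM outside it, with no count in 4 peripheral tissues. Ttc9b averaged 8.46 to 19.4 CPM in brain, and its 45 peripheral libraries held 6 counts in all. The other 2 tested genes with a match, Lhx3 and Ogdhl, were not in either set. A match describes letters in a window and is no evidence of binding.

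Of the 20 synaptic vesicle and release genes, 20 of 20 were higher in brain, 0 lower and 0 neither, 19 of them were above in every brain region, and the median log2 fold change was 6.57 against -0.11 over all genes. Cplx1, a clamp on vesicle fusion, averaged 188 CPM in corpus callosum, 384 in hippocampus, 344 in cerebellum, 420 in hypothalamus/thalamus and 945 in brainstem and at most 0.783 CPM in periphery, a log2 fold change of 10.95 ± 0.193 (SE, adjusted p = 1.82e-62). Rims1, a scaffold of the release site, averaged 82.1 to 179 CPM in brain and 1.52 CPM in intestinal adipose, where 1 library reached 8.93 CPM. Its log2 fold change was 10.06 ± 0.308 (SE, adjusted p = 1e-45). Vamp2 had the smallest change of the list, 2.24 ± 0.0299 (SE, adjusted p = 6.09e-71), with 323 to 738 CPM in brain and 85.1 to 146 CPM in periphery, but still did not overlap between the tissue means. Stx1a was the exception to the strict rule: it averaged 1.58 CPM in cerebellum, under the 7.03 CPM of intestinal adipose, and 67.7 CPM in hippocampus.

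On the receiving side, 18 of 20 were higher in brain, 0 lower and 2 neither among the postsynaptic scaffold genes (median 6.63), and 14 were above in every region. Nrxn3 and Lrrtm2, adhesion partners across the synapse, averaged 104 to 270 CPM and 28.9 to 67.9 CPM in brain and at most 0.205 and 0.0661 CPM outside it. Dlgap3, a scaffold of the postsynaptic density, had a log2 fold change of 9.23 ± 0.168 (SE, adjusted p = 1.25e-61). Gphn, the scaffold of inhibitory synapses, and Homer1 were not called, at 0.48 and 0.53. Both were highest in gastrocnemius, where Gphn averaged 92.2 CPM and Homer1 140 CPM, against brain region means of 51.8 to 64.6 CPM and 15.9 to 81.6 CPM. Shank3 was called higher at 1.43 ± 0.0815 (SE, adjusted p = 5.6e-28), yet 41 CPM in brainstem lay under the 83 CPM of gonadal adipose, and with tissues as replicates limma's adjusted p was 0.103.

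Transmitter genes had the largest median of the 32 lists. Among glutamate and GABA transmission genes, 20 of 20 were higher in brain, 0 lower and 0 neither, and the median log2 fold change was 11, with 18 above in every region. Grm5, a metabotropic glutamate receptor, averaged 67.1 CPM in corpus callosum, 240 in hippocampus, 7.62 in cerebellum, 99.8 in hypothalamus/thalamus and 75.3 in brainstem, and its 45 peripheral libraries held 30 counts in all. Slc32a1, which loads GABA and glycine into vesicles, averaged 27.1 to 117 CPM in brain, highest in brainstem, and its peripheral libraries held 28 counts. Slc17a7, the vesicular glutamate transporter of forebrain and cerebellum, was not above in every region by the 2-fold rule: brainstem averaged 30.9 CPM and heart 28.2 CPM, while hippocampus averaged 970 CPM.

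All 20 neuronal ion channel genes were higher in brain (median 7.54), and 17 were above in every region. Scn1a, a sodium channel subunit, averaged 53 CPM in corpus callosum, 108 in hippocampus, 231 in cerebellum, 208 in hypothalamus/thalamus and 348 in brainstem and at most 0.31 CPM in periphery. Cacng2 and Cacng8, accessory subunits that carry AMPA receptors, averaged 27.8 to 114 CPM and 3.37 to 51.6 CPM in brain and at most 0.0729 and 0.191 CPM outside.

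Of the axon and dendrite skeleton genes, 20 of 20 were higher (median 7.57), with 18 above in every region. The neurofilament gene Nefl averaged 101 CPM in corpus callosum, 375 in hippocampus, 167 in cerebellum, 303 in hypothalamus/thalamus and 1140 in brainstem, a spread of the kind seen in Nefm, at 42.3 to 1040 CPM and also highest in brainstem. Peripheral means stayed at or under 0.35 CPM for Nefl and 0.316 CPM for Nefm. Stmn3, which destabilises microtubules, had a log2 fold change of 10.18 ± 0.138 (SE, adjusted p = 1.87e-70). Tubb2a missed the 2-fold rule: in mean log2 CPM its lowest brain region lay 1.09-fold above the highest peripheral tissue. In mean CPM skin (111 CPM) was just over cerebellum (105 CPM).

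RNA-binding proteins divided by family member. Among neuronal RNA-binding and splicing genes, 16 of 20 were higher in brain, 1 lower and 3 neither, the median was 4.53 and 10 were above in every region. Rbfox3, the antigen known as NeuN, averaged 65.5 to 272 CPM in brain and at most 0.594 CPM in periphery, and Elavl3 averaged 185 to 251 CPM and at most 0.636 CPM. Rbfox1, of the same family as Rbfox3, was named after its values were seen: it averaged 448 CPM in gastrocnemius and 66.1 CPM in heart beside 77.2 to 326 CPM in brain, and 0.333 CPM in gonadal adipose, and limma's adjusted p over tissue means was 0.0544. Celf2 and Cpeb1 were not called, at 0.56 and 0.59. Ptbp1, a splicing repressor of cells other than neurons, was lower in brain at -1.49 ± 0.0363 (SE, adjusted p = 1.05e-52), and its neuronal counterpart Ptbp2 higher at 1.55 ± 0.0353 (SE, adjusted p = 7.6e-55). Ptbp1 did not part the classes: gastrocnemius averaged 29.2 CPM, under the 41.6 CPM of cerebellum, while intestinal adipose averaged 163 CPM. With tissues as replicates its adjusted p by limma was 0.0173.

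Of the neural transcription factor genes, 19 of 20 were higher in brain, 0 lower and 1 neither (median 8.49, 17 above in every region). Myt1l, a factor that represses non-neuronal programmes, averaged 92.1 CPM in corpus callosum, 207 in hippocampus, 100 in cerebellum, 136 in hypothalamus/thalamus and 101 in brainstem and at most 0.233 CPM in periphery. Mef2c, which serves muscle as well as neurons, was not called: it averaged 1400 CPM in gastrocnemius and 19.4 to 135 CPM in brain, for a log2 fold change of -0.99. Camk2a, a kinase of excitatory synapses, was higher in brain at 4.09 ± 0.168 (SE, adjusted p = 4.02e-37) but also present in muscle, at 881 CPM in gastrocnemius, 3750 CPM in hippocampus and 68.1 CPM in cerebellum.

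**Figure D3:**
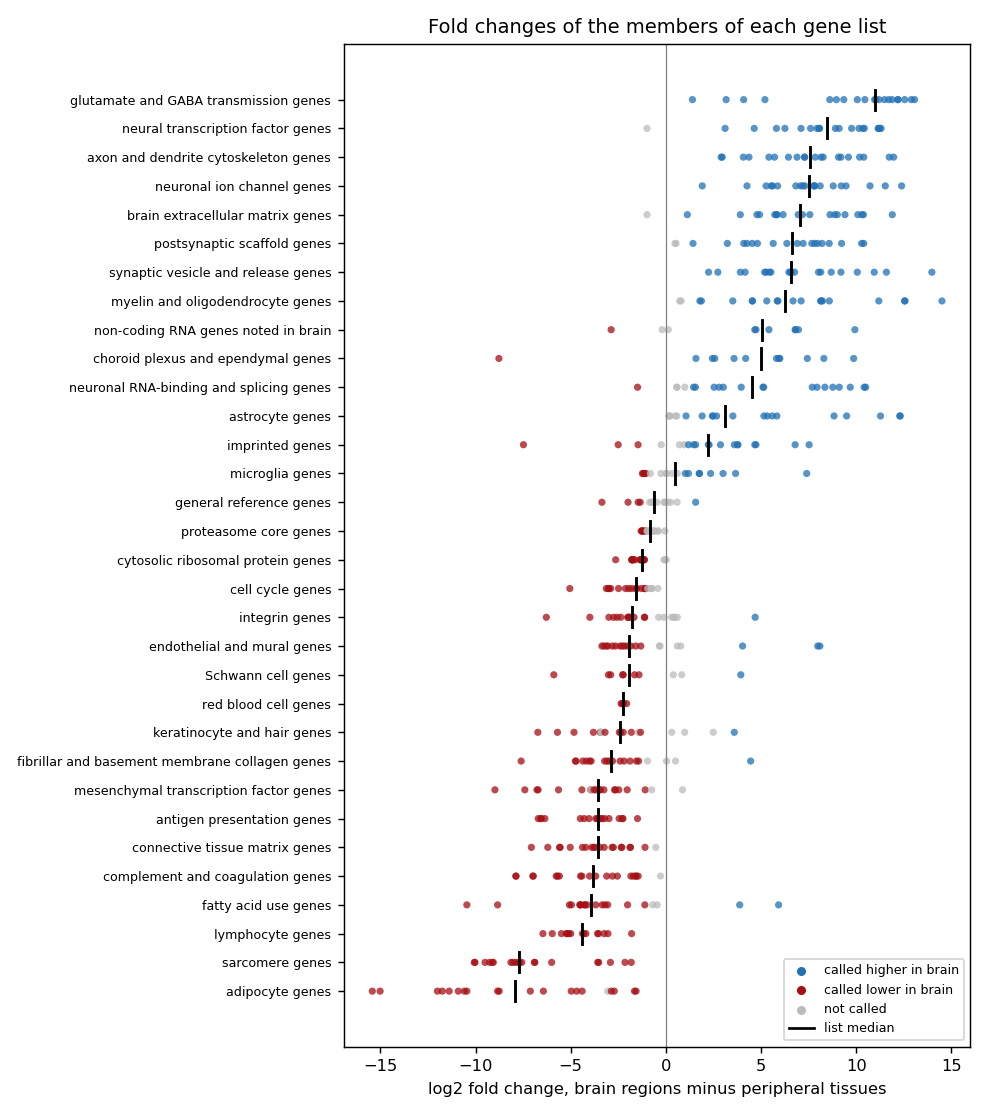
Log2 fold change, brain regions minus peripheral tissues, of each tested member of the 32 gene lists (points, blue called higher in brain, red called lower, grey not called) with the list median as a line. Medians run from 11 for transmission genes to -7.94 for adipocyte genes.

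Glial genes were counted in the same way. Of the myelin and oligodendrocyte genes, 18 of 20 were higher in brain, 0 lower and 2 neither, with a median of 6.29 and 15 above in every region. Mog, on the outer face of myelin, averaged 404 CPM in corpus callosum, 35.8 in hippocampus, 35.4 in cerebellum, 68.2 in hypothalamus/thalamus and 143 in brainstem and at most 0.113 CPM in periphery, a log2 fold change of 11.19 ± 0.15 (SE, adjusted p = 8.7e-71). Opalin averaged 8.48 to 207 CPM in brain, and its peripheral libraries held 9 counts in all. Trf and Aspa were not called: Trf, the iron carrier transferrin, averaged 3150 CPM in gonadal adipose against 1870 CPM in corpus callosum, and Aspa averaged 96.5 CPM in brown adipose against 145 CPM in corpus callosum. The 10 genes listed for Schwann cells, the myelinating glia outside the brain, gave 1 of 10 higher in brain, 7 lower and 2 neither, and 4 were lower with tissues as replicates.

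Among astrocyte genes, 15 of 20 were higher in brain, 0 lower and 5 neither (median 3.09, 7 above in every region). Slc1a2, the main glutamate transporter, averaged 2600 CPM in corpus callosum, 2840 in hippocampus, 697 in cerebellum, 1390 in hypothalamus/thalamus and 1580 in brainstem and at most 3.1 CPM in periphery. Gfap, their intermediate filament, averaged 110 to 671 CPM with a log2 fold change of 11.28 ± 0.136 (SE, adjusted p = 1.11e-73). Gjb6, a gap junction protein, averaged 31.3 to 66.1 CPM in brain and 21.5 CPM in skin, and at most 0.0966 CPM in the other peripheral tissues. Aldh1l1 was not called, at 0.18: gonadal adipose averaged 226 CPM and heart 6.1 CPM around brain region means of 36 to 54.6 CPM, and its sign changed when heart, gastrocnemius or skin was left out. Gja1 averaged 752 CPM in heart and 172 to 223 CPM in brain, and Glul 2980 CPM in brown adipose and 700 to 2270 CPM in brain. Of 2 astrocyte genes named after their values were seen, Aqp4, a water channel, reached 82.1 CPM in gastrocnemius beside 116 to 323 CPM in brain, and S100b 65.8 CPM in brown adipose beside 78.2 to 407 CPM.

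Of the microglia genes, 8 of 18 were higher in brain, 4 lower and 6 neither, the lower share being no larger than that of all genes (26.2%). With tissues as replicates limma called 5 higher and 0 lower. The median log2 fold change was 0.47, and 1 gene, Sall1, was above in every region. Sall1, a transcription factor of microglia among macrophages, averaged 58.4 CPM in corpus callosum, 20.3 in hippocampus, 8.44 in cerebellum, 21.1 in hypothalamus/thalamus and 33.5 in brainstem and 2.29 CPM in heart. P2ry12 and Cx3cr1, receptors of resting microglia, were higher at 3.01 ± 0.086 (SE, adjusted p = 8.04e-48) and 3.66 ± 0.106 (SE, adjusted p = 1.96e-47), though intestinal adipose (7.69 and 16.1 CPM) lay above cerebellum (6.43 and 11.2 CPM). C1qa and C1qc, complement subunits made by macrophages in many tissues, were lower at -1.18 ± 0.0656 (SE, adjusted p = 8.02e-29) and -1.23 ± 0.0743 (SE, adjusted p = 1.13e-26), and Tyrobp at -1.12 ± 0.0803 (SE, adjusted p = 2.18e-22). None of these 3 passed when tissues were the replicates, where limma's adjusted p was 0.101, 0.0782 and 0.132. The 3 were highest in intestinal adipose and, within brain, in corpus callosum.

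The matrix of brain and of connective tissue parted in opposite directions. Of the brain extracellular matrix genes, 19 of 20 were higher in brain, 0 lower and 1 neither (median 7.07, 18 above in every region). Bcan, a proteoglycan of the perineuronal matrix, averaged 195 CPM in corpus callosum, 169 in hippocampus, 114 in cerebellum, 170 in hypothalamus/thalamus and 202 in brainstem and at most 0.234 CPM in periphery, a log2 fold change of 11.90 ± 0.146 (SE, adjusted p = 2.76e-73). Hapln2, a link protein at nodes of myelinated axons, averaged 13 to 127 CPM, highest in corpus callosum. Tnc was not called, at -0.99, with 53.1 CPM in intestinal adipose and 2.52 to 12.3 CPM in brain.

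Of the fibrillar and basement membrane collagen genes, 1 of 20 were higher in brain, 16 lower and 3 neither, with a median of -2.88, and 9 were below in every region. Col3a1 averaged 911 CPM in skin, 208 in gastrocnemius, 190 in heart, 594 in intestinal white adipose, 676 in gonadal white adipose and 764 in brown adipose, against 1.06 to 4.76 CPM in brain, a log2 fold change of -7.61 ± 0.166 (SE, adjusted p = 5.66e-56). Col14a1 was lower at -4.76 ± 0.131 (SE, adjusted p = 7.55e-49), and Col1a2 at -4.36 ± 0.11 (SE, adjusted p = 1.64e-51). Col11a1, better known from cartilage, was higher in brain at 4.46 ± 0.23 (SE, adjusted p = 9.78e-31), averaging 13.5 CPM in corpus callosum, 22.5 in hippocampus, 3.41 in cerebellum, 41.3 in hypothalamus/thalamus and 74.3 in brainstem, though gastrocnemius at 4.24 CPM lay above cerebellum. Of the connective tissue matrix genes, 0 of 20 were higher in brain, 19 lower and 1 neither (median -3.59, 14 below in every region). Mfap5, of elastic microfibrils, had -7.07 ± 0.19 (SE, adjusted p = 1.31e-49), with 0.0688 to 0.409 CPM in brain and 17.6 to 46.6 CPM in periphery. Dcn, a proteoglycan that binds collagen, averaged 1030 CPM in skin, 812 in gastrocnemius, 749 in heart, 1010 in intestinal white adipose, 1200 in gonadal white adipose and 442 in brown adipose, and 8.84 to 30.7 CPM in brain. Sparc was not called at -0.53: brain region means ran over 172 to 1130 CPM, highest in hypothalamus/thalamus, and peripheral means over 300 to 1720 CPM, and its sign was positive without TMM factors and in FPKM.

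Transcription factors of mesenchyme followed the matrix: 0 of 20 were higher in brain, 17 lower and 3 neither (median -3.57, 5 below in every region). Meox2 averaged 6.85 CPM in skin, 22.5 in gastrocnemius, 21.4 in heart, 20.9 in intestinal white adipose, 26 in gonadal white adipose and 22.5 in brown adipose, and at most 0.0748 CPM in brain. Gata6 averaged 59.6 CPM in heart and 0.481 CPM in gastrocnemius, with at most 0.122 CPM in brain. Tbx5, a factor of heart and forelimb, averaged 41.1 CPM in heart, 7.26 CPM in brown adipose and at most 2.84 CPM in the other peripheral tissues. Among integrins, which anchor cells to matrix, 1 of 20 were higher in brain, 13 lower and 6 neither (median -1.79). Itga5, a fibronectin receptor chain, was the 1 below in every region, at -4.00 ± 0.105 (SE, adjusted p = 3.18e-50), and Itgb8 the 1 above, at 4.69 ± 0.101 (SE, adjusted p = 1.53e-56), with 55.3 to 91.5 CPM in brain and 1.13 to 7.41 CPM in periphery.

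The widest gaps on the peripheral side were those of Fabp4, Ifi205, Gpihbp1, Dpep1, Plbd1, Dpt, Aqp7, Retnla, Meox2, Ces1d, Ccl21a and Cd36. Fabp4, a fatty acid carrier of adipocytes and capillary endothelium, averaged 886 CPM in skin, 293 in gastrocnemius, 534 in heart, 4010 in intestinal white adipose, 11600 in gonadal white adipose and 10300 in brown adipose. Its brain libraries were 0, 0.0241 and 4.52 CPM (lowest, median, highest), and the peripheral ones 219, 1430 and 15600 CPM. The log2 fold change was -15.02 ± 0.34 (SE, adjusted p = 7.12e-55). Cd36, a fatty acid receptor, averaged 195 CPM in skin, 564 in gastrocnemius, 2630 in heart, 1430 in intestinal white adipose, 3130 in gonadal white adipose and 2910 in brown adipose and 0.548 to 2.49 CPM in brain. Gpihbp1, which holds lipoprotein lipase on capillaries, averaged 6.35 to 89.5 CPM in periphery, and its 40 brain libraries held 10 counts in all. Dpt, a matrix protein, averaged 85 to 391 CPM outside brain, and reached 4.15 CPM in 1 brainstem library. Ccl21a, Ifi205 and Ces1d belong to families of near-identical copies, and how reads were divided among copies is not given in the sources used here.

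The 867 genes took 4.64% to 19% of the counts of a peripheral library and 0.455% to 0.764% of a brain library, as the plot of shares shows. They were highest in intestinal (25.7%) or gonadal adipose (21.5%) or skin (20.6%) more often than in heart (9%), and lowest most often in gastrocnemius (37.6%). The median spread between a gene's highest and lowest peripheral tissue was 7.80-fold. In 47.3% of them the highest brain region was corpus callosum. Leaving out gastrocnemius raised their number to 1258.

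**Figure D4:**
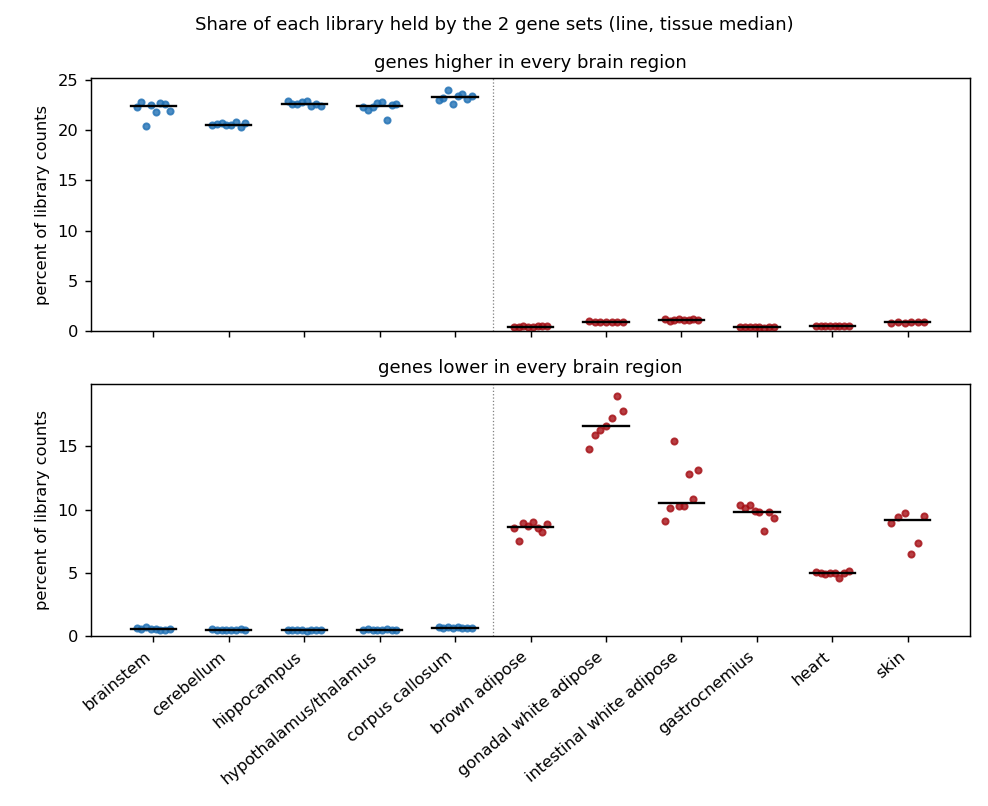
Percent of the estimated counts of each library held by the 1916 genes above in every brain region (upper) and the 867 below in every region (lower), by tissue, with a line at the median. The first set holds 20.3% to 24% in brain libraries, the second 4.64% to 19% in peripheral ones. The sets were chosen on these libraries, so the contrast itself is no finding.

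Genes of fat and fuel use were lower as groups. Of the adipocyte genes, 0 of 20 were higher in brain, 19 lower and 1 neither (median -7.94, 12 below in every region). Adipoq, the hormone adiponectin, averaged 195 CPM in skin, 25.9 in gastrocnemius, 1.45 in heart, 1350 in intestinal white adipose, 2950 in gonadal white adipose and 1570 in brown adipose and at most 0.194 CPM in brain. Cfd, adipsin, averaged 10400 CPM in gonadal adipose and 3.51 CPM in heart. Ucp1 was the member not called, with 3930 CPM in brown adipose and at most 0.604 CPM in the other peripheral tissues. Its log2 fold change of -3.06 came with an SE of 5640, so the edgeR test tells nothing about this gene. Limma's adjusted p over tissue means was 0.441. Of the fatty acid use genes, 2 of 20 were higher in brain, 16 lower and 2 neither (median -3.91). Lpl, the lipoprotein lipase, averaged 618 CPM in skin, 1380 in gastrocnemius, 8220 in heart, 3170 in intestinal white adipose, 11000 in gonadal white adipose and 6260 in brown adipose, and in brain 45.8 CPM in hippocampus and 1.52 CPM in cerebellum. Its log2 fold change was -8.84 ± 0.168 (SE, adjusted p = 2.67e-60). The 2 higher members, Acsl6, which activates long-chain fatty acids, and Cpt1c, the brain form of carnitine palmitoyltransferase, were above in every region at 5.92 ± 0.174 (SE, adjusted p = 6.21e-47) and 3.88 ± 0.0653 (SE, adjusted p = 5.95e-64).

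All 20 sarcomere genes were lower in brain (median -7.71), but 5 were below in every region and 10 were lower with tissues as replicates. Myl1, a light chain of fast fibres, averaged 735 CPM in skin, 16400 in gastrocnemius, 35.5 in heart, 14.2 in intestinal white adipose, 40.5 in gonadal white adipose and 694 in brown adipose and at most 0.528 CPM in brain. Actc1, cardiac actin, averaged 10600 CPM in heart, 412 CPM in gastrocnemius and 0.775 CPM in gonadal adipose. The contrast averages log values over tissues, so a gene of 1 tissue gives a small fold: Myh6, at 32800 CPM in heart, had a log2 fold change of -1.82 ± 0.302 (SE, adjusted p = 7.59e-08), and of 0.73 with heart left out, and limma's adjusted p over tissue means was 0.951. Summed on plain library totals, the 20 genes ran over 8300 to 25000 CPM in skin, 72.5 to 18600 CPM in brown adipose and 51.4 to 492 CPM in gonadal adipose. What that muscle RNA adds to the values of skin and brown adipose was not tested.

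Skin genes show the same limit most plainly. Of the keratinocyte and hair genes, 1 of 18 were higher in brain, 11 lower and 6 neither (median -2.41), and 0 passed the limma test on tissue means or either strict rule. Krt14, of the basal epidermis, averaged 2070 CPM in skin and at most 0.451 CPM elsewhere, with no count in corpus callosum. The gene was lower in brain in 7 of 8 mice, but with 6 skin libraries that tally includes mice without skin. Krt1 was called higher in brain at 3.59 ± 0.242 (SE, adjusted p = 7.05e-24): it averaged 0.827 to 4.48 CPM in the brain regions, at most 0.267 CPM in 5 peripheral tissues and 1270 CPM in skin. Its adjusted p by limma over tissue means was 0.247. In 198 of the 5387 genes called higher (3.68%), the mean of the tissue CPM values was in fact larger in periphery, against 9 of the 5224 called lower (0.172%), 1 of the 1916 and 0 of the 867.

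Immune and blood genes were lower in brain. Of the antigen presentation genes, 0 of 18 were higher in brain, 18 lower and 0 neither (median -3.58, 7 below in every region). Summed on plain library totals, the list held 239 to 464 CPM in gastrocnemius, overlapping the 262 to 454 CPM of brainstem. Heart, the next lowest peripheral tissue, held 512 to 912 CPM. H2-Aa, a class II chain of antigen-presenting cells, averaged 338 CPM in skin, 33.9 in gastrocnemius, 60.3 in heart, 922 in intestinal white adipose, 226 in gonadal white adipose and 113 in brown adipose and 0.67 to 2.78 CPM in brain, a log2 fold change of -6.71 ± 0.142 (SE, adjusted p = 7.62e-57). H2-K1, a class I gene with close copies, was lower at -4.30 ± 0.0641 (SE, adjusted p = 1.44e-67), and B2m, the chain shared by class I molecules, at -3.36 ± 0.0589 (SE, adjusted p = 8.84e-63). Of the complement and coagulation genes, 0 of 20 were higher in brain, 19 lower and 1 neither (median -3.85, 12 below in every region). Their sum on plain library totals overlapped as well, at 287 to 496 CPM in gastrocnemius and 228 to 402 CPM in brainstem. C3, the central complement component, averaged 617 CPM in skin, 179 in gastrocnemius, 339 in heart, 2540 in intestinal white adipose, 1450 in gonadal white adipose and 1420 in brown adipose, and 4.51 CPM in corpus callosum, 2.07 in hippocampus, 0.902 in cerebellum, 2.6 in hypothalamus/thalamus and 15.6 in brainstem. C1s, a protease of the first complement complex, had -6.97 ± 0.0917 (SE, adjusted p = 3.09e-71). F3, tissue factor, was not called at -0.28, with 29.7 to 39.1 CPM in brain and 11.4 to 110 CPM outside, and its sign was positive without TMM factors and in FPKM. All 15 lymphocyte genes were lower (median -4.38). Their summed level, on plain library totals, was 1660 to 6130 CPM in intestinal adipose, 252 to 680 CPM in gonadal adipose and 3.32 to 5.57 CPM in cerebellum. The sums overlapped between the classes: brainstem held 44.7 to 64.8 CPM, above the 10.1 to 20.2 CPM of heart. The 5 tested red blood cell genes summed to 1310 to 4200 CPM in heart and 66.1 to 171 CPM in hippocampus. These sums overlapped too, with 148 to 486 CPM in corpus callosum and 102 to 203 CPM in gastrocnemius. All 5 were called lower in brain, but 0 were below in every region. The part of blood left in the vessels in these differences was not tested.

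Vascular genes moved both ways. Of the endothelial and mural genes, 3 of 20 were higher in brain, 13 lower and 4 neither (median -1.93). Cdh5, the junction cadherin of endothelium, averaged 14.7 CPM in corpus callosum, 9.83 in hippocampus, 12.2 in cerebellum, 11.5 in hypothalamus/thalamus and 13.2 in brainstem, and 15.4 CPM in skin, 131 in gastrocnemius, 221 in heart, 131 in intestinal white adipose, 199 in gonadal white adipose and 216 in brown adipose. Kdr, a receptor for vascular growth factor, was lower at -3.05 ± 0.0647 (SE, adjusted p = 7.45e-57). Against these, Slco1a4 and Slco1c1, organic anion transporters of the blood-brain barrier, were above in every region at 8.10 ± 0.148 (SE, adjusted p = 2.21e-61) and 7.98 ± 0.128 (SE, adjusted p = 1.96e-65). Slco1c1 averaged 34.5 to 57.2 CPM in brain and 0.0796 to 0.418 CPM in periphery. Mfsd2a, a lipid transporter of the same barrier, was higher at 4.03 ± 0.299 (SE, adjusted p = 1.55e-21), but brown adipose averaged 22.6 CPM beside 7.74 to 26.1 CPM in brain. Cldn5, a tight junction protein, was not called at -0.31, with 13.1 to 18.8 CPM in brain, and its sign was positive without TMM factors and in FPKM.

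Among 12 choroid plexus and ependymal genes, 11 of 12 were higher in brain, 1 lower and 0 neither (median 5). Ttr, the thyroxine carrier of choroid plexus, averaged 82.2 CPM in corpus callosum, 33.1 in hippocampus, 716 in cerebellum, 15.3 in hypothalamus/thalamus and 13.3 in brainstem. The summed list varied within cerebellum from 50.7 to 2230 CPM between libraries, and the part of attached plexus in that was not tested. Aqp1, a water channel of plexus and of peripheral endothelium, was lower at -8.78 ± 0.202 (SE, adjusted p = 2.08e-54), averaging 73.3 CPM in skin, 598 in gastrocnemius, 434 in heart, 243 in intestinal white adipose, 491 in gonadal white adipose and 513 in brown adipose and 4.04 CPM in cerebellum.

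Pairs of related genes were set side by side. The second member was not lower in brain in every pair. Kif5b and Syt12 were themselves called higher in brain, at log2 fold changes of 1.21 ± 0.0364 and 1.72 ± 0.104 (SE). They were compared in FPKM, which divides by gene length. Snap25 exceeded Snap23, its counterpart in other secretory cells, in 40 of 40 brain libraries and 0 of 45 peripheral ones: Snap25 averaged 549 to 1490 FPKM in brain regions, and Snap23 6.71 to 11.7 FPKM there and 12.6 to 23.8 FPKM in periphery. Eno2 exceeded Eno3, the muscle enolase, in 40 brain and 0 peripheral libraries, with Eno2 at 149 to 386 FPKM in brain and Eno3 at up to 3140 FPKM in periphery. The glucose transporters Slc2a3 of neurons and Slc2a4 of muscle and fat did the same, Slc2a3 at 17.3 to 41.6 FPKM in brain and Slc2a4 at 24.8 to 191 FPKM outside. Tubb3 over Tubb6, Fabp7 over Fabp4, Kif5a over Kif5b and Dnm1 over Dnm2 also held in 40 of 40 brain and 0 of 45 peripheral libraries.

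Of the 24 pairs, 8 divided in this way, Syt1 over Syt12 included, and 16 did not. Pfkp exceeded Pfkm, the muscle phosphofructokinase, in 0 of 40 brain libraries and 15 peripheral ones. Ppp3ca exceeded Ppp3cc in all 85 libraries, and Ywhah exceeded Sfn in 40 brain and 39 peripheral ones. The creatine kinase Ckb exceeded Ckm in 40 brain libraries but also in 16 peripheral ones, and Cpt1c exceeded Cpt1b in 7. Ptbp2 exceeded Ptbp1 in 40 brain libraries and 5 peripheral ones, at 27.6 to 35.1 FPKM against 13.4 to 23.2 FPKM in brain. Aldoc, the brain aldolase, exceeded Aldoa in 15 of 40 brain libraries, and Aldoa averaged 570 to 1010 FPKM there. Vamp2 exceeded Vamp8 in 28 of 45 peripheral libraries too. Nefl exceeded the general filament gene Vim in 30 of 40 brain libraries. The map of ratios by tissue shows each pair.

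**Figure D5:**
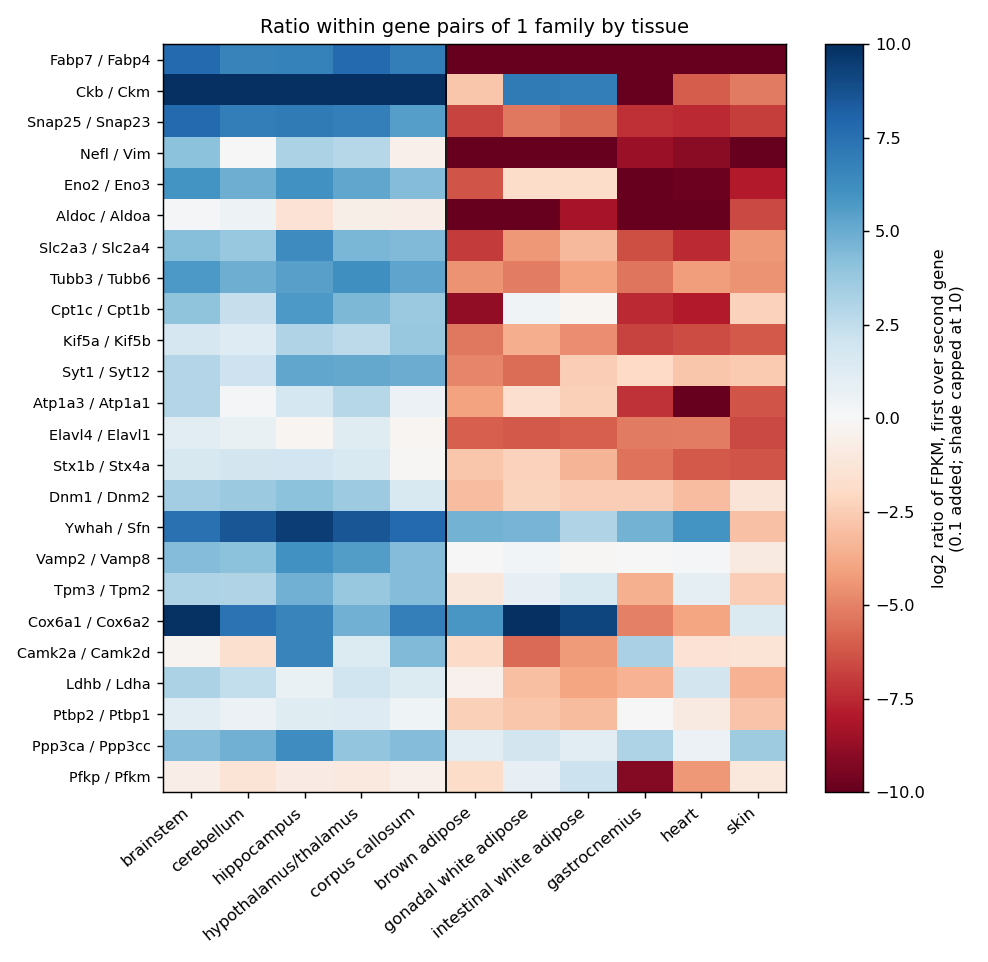
Log2 ratio of FPKM (0.1 added to each) between members of 24 gene pairs, first over second, averaged over the libraries of each tissue, with brain regions left of the black line. Blue marks pairs whose first member is higher, red the second; Snap25/Snap23, Eno2/Eno3, Slc2a3/Slc2a4, Tubb3/Tubb6 and Fabp7/Fabp4 are blue in every brain region and red in every peripheral tissue.

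General genes gave a scale for these differences. Of the cytosolic ribosomal protein genes, 0 of 20 were higher in brain, 17 lower and 3 neither, with a median of -1.28. That median was -0.655 without TMM factors and -0.609 in FPKM. Rplp0 was lowest at -2.64 ± 0.0486 (SE, adjusted p = 2.95e-61). Of the 20 proteasome core genes, 6 were lower and 0 higher, a lower share near the 26.2% of all genes. Their median of -0.85 became -0.215 without TMM factors and -0.203 in FPKM. Of 15 genes often used as references, 1, Ywhaz, was higher at 1.56 ± 0.0325 (SE, adjusted p = 1.56e-57) and 4 lower, among them B2m, Sdha at -1.46 and Gusb at -1.35. The lower share of the reference list was also near that of all genes. With tissues as replicates limma's adjusted p for Sdha was 0.0914. Gapdh and Actb were not called, and the sign of Actb was positive without TMM factors and in FPKM, while Gapdh averaged 5190 CPM in gastrocnemius and 348 to 528 CPM in brain. The median of the reference list was -0.64, and changed sign without TMM factors (0.01) and in FPKM (0.03). Of cell cycle genes, 15 of 20 were lower and 0 higher (median -1.55, but -0.926 without TMM factors and -0.762 in FPKM). With tissues as replicates 4 of them were also lower, a share near the 18.5% of all genes.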

How the data were processed

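Messenger RNA libraries of 85 wild-type tissue samples were used. The authors deposited estimated counts per gene (16.6% of values not whole) and FPKM values; per the submitters' processing notes CASAVA 1.8.2 was used, and for the aligner, counter, strandedness and genome build a statement is not given in the sources used here. Symbols from a table of gene names matched 36639 of 38561 Ensembl identifiers (95.0%). Estimated counts were rounded, filtered with filterByExpr by tissue, scaled by TMM and fitted with edgeR 4.0.16 (glmQLFit, robust) in R 4.3.3, with tissue and sex as terms. The contrast was the mean of 5 brain coefficients minus the mean of 6 peripheral ones, with Benjamini-Hochberg adjustment over 19928 genes. Each SE is the absolute log2 fold change divided by the square root of the quasi-likelihood F value, not a standard error reported by the fit. It is approximate, least reliable for genes near 0 counts, and leaves out the spread between tissues. Limma 3.58.1 tested the 11 tissue means. Tissue means for the strict rule used log2 CPM with a prior count of 0.5. A replicate is 1 mouse in 1 tissue, by the animal code in the library name; title numbers cover 3 to 4 animals each and pair nothing. The correlation within animals, over all genes, was 0.0275 by limma's duplicateCorrelation. The genes named are those of a written rule: markers, the 12 widest gaps each way, up to 4 members with the largest change and 3 exceptions per list, the family pairs, the tissue markers and the edge of the 2-fold gap. Outside it, chosen after their values were seen, are Stx1a, Shank3, Slc17a7, Tubb2a, Rbfox1, Aqp4, S100b, Col1a2, H2-K1, Cdh5, Kdr, Peg3, Dlk1, Gusb and the genes with a promoter match. The libraries, lists and rule were chosen with earlier results of these data known. Some results are not reported here. Scripts were tested on simulated data.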

Additional observations from a re-analysis of the deposited data

Results flagged for a closer look

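Dixon's gap test was run on 5 measures in each of the 11 tissues, 55 groups in all, and marked 7; chance marks about 1 group in 20. In gonadal adipose 1 female's library stood apart for Snap25 (8.02 CPM, next 1.08, lowest 0.145) and for Syt1 (4.60 CPM, next 0.505, lowest 0). In intestinal adipose another female's library did for Snap25 (3.78 CPM, next 1.83, lowest 0.119). The share of counts of the genes above in every brain region was low in 1 brainstem library, female 3 (20.4%, the others 21.8% to 22.8%), and in 1 hypothalamus/thalamus library, male 2 (21%, the others 22% to 22.8%). It was high in 1 gastrocnemius library, female 4 (0.424%, the others 0.312% to 0.358%). The share of the genes below in every brain region was low in 1 heart library, male 2 (4.64%, the others 4.93% to 5.17%).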

How the results depend on the processing

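Counts stayed within 1.5 times of the reported ones except under other scalings and gaps. Without TMM factors, an alternative chosen after seeing the data, 3459 genes were lower by edgeR, 386 were below in every region and 1939 were lower by limma on tissue means; in log2(FPKM + 1) these were 2132, 167 and 1217, and 1370 were above. With no gap asked beyond 0 the sets held 3485 and 2891 genes, and with a 4-fold gap 1274 and 329. DESeq2 called 5743 higher and 5134 lower, RLE factors in edgeR 5732 and 4783. With the mouse as a replicate block, 5417 were higher, 5191 lower, 1912 above and 862 below, and no count moved by over 1.5 times. Without 1 mouse, counts ranged over 5350 to 5417, 5142 to 5219, 1888 to 1930, 848 to 887, 4429 to 4493 and 3652 to 3701 (edgeR higher and lower, above, below, limma higher and lower); without 1 tissue, 5187 to 5567, 5004 to 5560, 1929 to 2230, 894 to 1258, 4025 to 4529 and 3112 to 4002. Without 1 brainstem (female 3) and 1 hypothalamus/thalamus (male 2) library, also added after seeing the data, 1923 were above and 877 below. Of log2 fold changes, Sparc became 0.11 without factors and 0.14 in FPKM, F3 0.36 and 0.34, Cldn5 0.32 and 0.30, and Actb 0.17 and 0.16, all positive; Cldn5 was 0.34 in Q175 libraries. Dnm2 was 0.0018 in FPKM. Krt1 was -0.49 in FPKM. With 1 tissue left out at a time, Myh6 ranged from -2.70 to 0.73 (without heart), Gja1 from -0.06058 (without gastrocnemius) to 0.94, Cldn5 from -0.59 to 0.0086, and Aldh1l1 from -0.42 (without heart) to 0.61. The median of the reference genes became 0.0112 without factors and 0.0328 in FPKM. The causes were not tested beyond what each setting leaves out. Depth limits genes near 0 CPM, whose folds depend on the prior count.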

Other observations

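Imprinted genes, expressed from 1 parental copy, leaned towards brain: of 19 tested, 13 were higher and 3 lower, beside 27% and 26.2% of all genes. Meg3, a maternally expressed long RNA, averaged 2670 CPM in corpus callosum, 4580 in hippocampus, 3110 in cerebellum, 6200 in hypothalamus/thalamus and 4280 in brainstem, and 20.2 to 55.8 CPM in periphery, a log2 fold change of 6.79 ± 0.133 (SE, adjusted p = 2.09e-59). Rian, of the same cluster, averaged 359 to 715 CPM in brain and 12.6 to 31.2 CPM in periphery. Peg3 was also above in every region, with 224 to 1030 CPM in brain and 17.7 to 80.2 CPM outside. Dlk1 averaged 110 CPM in hypothalamus/thalamus and 0.573 CPM in cerebellum, under the 2.02 CPM of intestinal adipose. H19 went the other way, at -7.49 ± 0.29 (SE, adjusted p = 8.34e-39), with 854 CPM in gastrocnemius, 0.885 CPM in gonadal adipose and at most 1.13 CPM in brain.

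Of 10 tested non-coding RNA genes noted in brain, 7 were higher and 1 lower. Miat averaged 358 CPM in corpus callosum, 932 in hippocampus, 31.3 in cerebellum, 417 in hypothalamus/thalamus and 408 in brainstem and at most 5.74 CPM in periphery. Snhg11 averaged 1290 to 2830 CPM in brain and 280 CPM in gonadal adipose. Neat1, the scaffold of nuclear paraspeckles, was lower at -2.88 ± 0.0745 (SE, adjusted p = 8.09e-51): it averaged 1190 to 4000 CPM in periphery, 1070 CPM in corpus callosum and 140 CPM in hippocampus.

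The 1916 genes above in every region had a median length behind the deposited FPKM of 2970 bases, against 2040 bases for the 867 below and 2420 bases for all tested genes. By the GENCODE M21 annotation 6.52% of the 1916 lay on the X chromosome, with 2.42% of the 867 and 3.51% of all tested genes. LincRNA genes made up 4.75%, 2.19% and 3.09% in the same order. These are descriptions with no test.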
